A study of Mus musculus with 21 samples.

Results

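Opposite-strand transcripts are named after the gene they face: the row Grin1os holds the transcript read from the strand opposite to Grin1. In the gene count table, 157 symbols end in os, with or without a number, and have a stem that is also a row. They made 157 pairs, with 157 opposite-strand genes and 150 partners, because 7 partners had 2 opposite-strand genes each. Together they were 307 of the 24498 genes counted. A further 21 symbols end in os without a partner row, such as Fos, and were left out.

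The libraries were RNA-seq of hippocampus from male mice aged 8 weeks. The knockdown groups had received, by injection into the dorsal hippocampus, an AAV2/9 vector in which a U6 promoter drives a short hairpin against Acss2 and CMV drives EGFP. Acss2 encodes a synthetase that joins acetate to coenzyme A. The groups labelled Control have no vector or injection named in the labels. Ethanol was given intraperitoneally at 2 g/kg as a 20% solution in saline, and the labels give no time to dissection. After ethanol there were 5 dorsal, 4 ventral and 1 total hippocampus knockdown libraries, and 3 dorsal and 4 ventral control libraries. Without ethanol there were 2 dorsal knockdown and 2 dorsal control libraries. The labels do not say that replicates came from separate mice, so p-values measure the spread between these samples.

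Depth set what each library could show. Of the 17 ethanol libraries, 15 held 2819837 to 13240179 reads in genes. The knockdown dorsal replicate 5 held 5021 and the knockdown ventral replicate 1 held 8744. The 4 untreated libraries held 4279 to 221847, although 422290 to 15557875 of their reads aligned uniquely, so 0.991 to 1.43% of unique reads fell in genes, against 57.4 to 81.0% in the 15 ethanol libraries. The sample titles name both untreated groups as a separate treatment only. The analysis plan took these libraries to come from an earlier series of the submitters. So ethanol, series and whatever else set these 4 libraries apart cannot be told apart. Neuronal markers were present in all groups: 10 of 10 were detected, with a summed 3689 to 12026 reads per 1000000 gene reads in the untreated and 9113 to 16154 counts per 1000000 (CPM) in the 15 ethanol libraries.

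Transcripts from the opposite strand arise in several ways. Some start at the same promoter as the partner and run away from it, some start inside the partner or beyond its end and run back across its exons, and a few are protein-coding genes that only face the partner. Antisense RNAs of this kind are known in brain at developmental regulators, such as Dlx6os1 in interneurons, where the transcript contributes to control of Dlx genes. A library that keeps strand is needed to tell such a transcript from its partner where their exons overlap. The kit used here keeps strand, but the labels and files used here name no strand setting for the counting.

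By the GENCODE M21 annotation of mm10, 148 pairs could be placed, all 148 on opposite strands of the same locus. In 46 pairs the transcripts overlapped head to head, in 16 tail to tail, in 48 the opposite-strand gene lay inside the partner, and in 5 it covered the partner. In 26 pairs the genes ran apart without overlap and in 7 they ran toward each other without overlap. Exons overlapped in 80 pairs, by 12 to 3255 bases (median 205), and in 52 of those the shared stretch held coding bases of the partner. Exons did not overlap in 68. The annotation of the deposited table may differ from these models.

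A set of 3 overlaps is shown as examples of exons that face each other. The counts are per gene and place no read in these bases. Each is the GENCODE sequence of the opposite-strand transcript (GRCm38), read 5′ to 3′ on its own strand. Capitals mark bases that pair with a coding exon of the partner, and lower case marks 12 bases of the same transcript that lie in the partner's intron. Every capital base was the exact complement of the partner transcript.
Chn1os3: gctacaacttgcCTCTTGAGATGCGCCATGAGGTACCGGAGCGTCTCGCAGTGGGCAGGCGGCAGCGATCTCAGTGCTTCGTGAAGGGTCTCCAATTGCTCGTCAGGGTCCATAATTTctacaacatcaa
Pcsk2os2: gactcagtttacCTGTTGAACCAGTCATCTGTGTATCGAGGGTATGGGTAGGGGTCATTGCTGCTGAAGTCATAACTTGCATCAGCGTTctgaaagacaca
Acss2os: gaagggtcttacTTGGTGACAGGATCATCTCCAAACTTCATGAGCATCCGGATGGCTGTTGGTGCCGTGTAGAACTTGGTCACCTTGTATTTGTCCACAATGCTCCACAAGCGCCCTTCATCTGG
The capitals in Chn1os3 (plus strand, chr2:73614650-73614779) are a whole coding exon of 106 bases of Chn1, a Rac GTPase-activating protein of neurons. Those in Pcsk2os2 (minus strand, chr2:143749113-143749213) are a 77-base exon of Pcsk2, a prohormone convertase. The exon of Acss2os (minus strand, chr2:155556799-155556923) ends within that of Acss2, so the capitals are 113 bases of a longer Acss2 exon. In Pcsk2os2 and Acss2os the lower-case stretch before the capitals ends in ac, the complement of the GT that opens the partner's intron, and in Chn1os3 it ends in gc. In Chn1os3 and Pcsk2os2 the stretch after the capitals begins with ct, the complement of the AG that closes the intron before.

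One divergent pair is shown for contrast. Between the annotated starts of Cep83os and Cep83, a centriole component, lie 77 bases without any exon of either (RefSeq promoter table, GRCm38.p6, plus strand, chr10:94688565-94688653). Capitals mark those bases, and lower case marks 12 bases of the first exon of Cep83os, which is read leftward.
Cep83: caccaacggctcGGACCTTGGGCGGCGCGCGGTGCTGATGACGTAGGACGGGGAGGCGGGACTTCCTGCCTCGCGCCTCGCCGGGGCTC
The 77 bases were 75.3% G or C and held 11 CG steps. The 300-base promoter window of Cep83 held 46, against a median of 7 over 32851 windows of the table. Neither TATAAA nor CCAAT, looked for on both strands, occurred in that window. Of all windows, 13.6% held TATAAA and 37.4% CCAAT.

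In the ethanol libraries the opposite-strand genes were scarce beside their partners. Summed over the 157 pairs, 46303 reads fell on opposite-strand genes and 1361278 on partners. The opposite-strand share of pair reads was 2.30 to 5.59% over the 15 libraries (median 3.02). The 2 shallow ethanol libraries had shares of 6.25% (1.31 to 17.2) and 5.00% (1.64 to 11.3), with Clopper-Pearson 95% intervals that cover counting error only. The median opposite-strand gene had 0.101 CPM, scaled by the TMM method, and the median partner 23.9 CPM. Of the 157, 34 reached 1 CPM, 10 reached 10 CPM and 40 had 0 reads in all 15 libraries.

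In the untreated libraries the balance was the other way round. The opposite-strand share was 91.0% (90.4 to 91.6) and 84.5% (83.9 to 85.2) in the control replicates 1 and 2, and 91.1% (90.4 to 91.8) and 88.4% (84.3 to 91.8) in the knockdown replicates 1 and 2. These shares rested on 25460 opposite-strand and 3411 partner reads. No untreated library came near the highest ethanol library. Without Grin1os, which gave the most reads, the 4 shares were 79.9 to 87.5%. Opposite-strand genes took 4.77 to 7.12% of all gene reads there, against 0.0241 to 0.0661% in the 15 ethanol libraries.

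**Figure D1:**
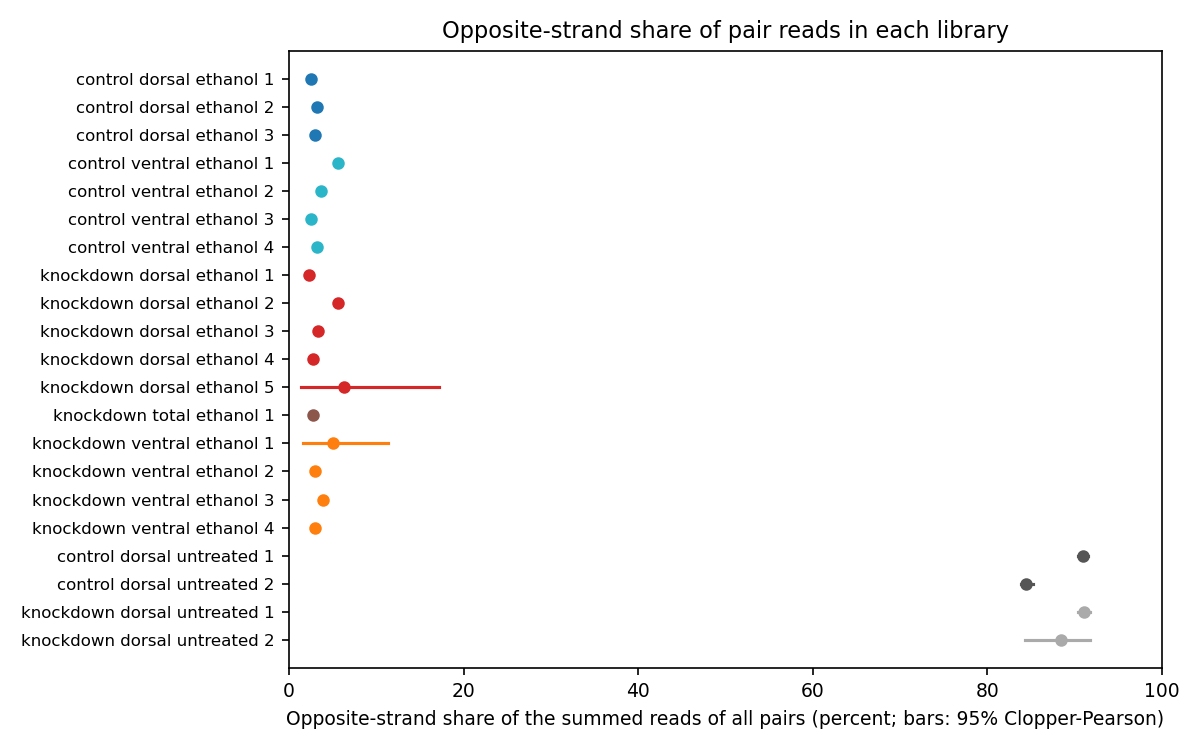
Opposite-strand share of the summed reads of 157 pairs (horizontal axis, percent) in each of the 21 libraries (rows, coloured by group), with Clopper-Pearson 95% intervals. Every ethanol library lies at or below 6.25%, and the 4 untreated libraries lie between 84.5 and 91.1%.

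Because so few untreated reads fell in genes, levels were also set against uniquely aligned reads. On that scale the opposite-strand genes together had 252 reads per 1000000 in the 15 ethanol libraries and 699 in the untreated, which is 2.77 times more. The partners had 7407 and 93.6, which is 79.1 times less in the untreated. All genes together had 56.7 times fewer reads per unique read in the untreated libraries. So the summed opposite-strand reads were higher both as a share of gene reads and per unique read. The summed partner reads were lower per unique read. Of the 25460 untreated opposite-strand reads, Grin1os held 8100, Chn1os3 5980 and Peg3os 1729. Of the 157 opposite-strand genes, 65 had 0 untreated reads, so the sums do not describe every gene.

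Grin1os, which faces the obligatory NMDA receptor subunit gene Grin1, was the gene with the most reads of all 24498 in each of the 4 untreated libraries. It had 2874 and 3084 reads in the control and 2063 and 79 in the knockdown replicates, while Grin1 had 10, 54, 8 and 2. In the 15 ethanol libraries together Grin1os had 79 reads and Grin1 71599. Grin1os had 187 to 260 reads per 1000000 unique reads in the untreated and at most 0.905 in the 15 ethanol libraries. Grin1 had 208 to 595 after ethanol and 0.850 to 4.74 in the untreated. Grin1os was 517 times higher and Grin1 192 times lower in the untreated, by the summed reads.

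Chn1os3 ranked between 2 and 3 in the untreated libraries. It had 1935, 2670, 1314 and 61 reads there, against 44, 98, 23 and 0 for Chn1. After ethanol the 15 libraries held 62 reads of Chn1os3 and 118830 of Chn1. The opposite-strand share of this pair was 97.3% (96.9 to 97.7) untreated and 0.0521% (0.0400 to 0.0668) after ethanol.

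Peg3os faces Peg3, a paternally expressed zinc finger gene, and could not be placed in GENCODE. It had 539, 705, 460 and 25 untreated reads and 6 reads in the 15 ethanol libraries. Peg3 itself had 93 untreated reads and 35942 after ethanol. Its share was thus 94.9% (93.8 to 95.9) in the untreated.

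The same order held for 6 other opposite-strand genes with many untreated reads. It did not hold for Brip1os, which had 799 untreated reads against 0 for Brip1 and was the larger after ethanol as well, with 1366 reads against 22. Fam219aos had 800 untreated reads against 12 for Fam219a, and 10 against 14679 after ethanol. Bcas1os2, opposite the oligodendrocyte gene Bcas1, had 579 against 39, and 36 against 24541 after ethanol. Kcnmb4os1 and Kcnmb4os2 lie at opposite ends of Kcnmb4, a regulatory subunit of the BK potassium channel, and share that partner. They had 417 and 540 untreated reads against 18 for Kcnmb4, and 10 and 326 after ethanol against 5560. Pcsk2os2 had 486 against 63, and 7 against 34997 after ethanol. Uchl1os, opposite the neuronal ubiquitin hydrolase Uchl1, had 358 against 50, and 36 against 62734 after ethanol. In each of the 6 the opposite-strand gene had more reads than its partner without ethanol and fewer after it.

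Acss2, the knockdown target, followed this order too. It had 0 reads in all 4 untreated libraries, controls included, which allows up to 6.90 reads per 1000000 of their summed gene reads. Acss2os had 8, 12, 4 and 0 reads there, and 1 read in the 15 ethanol libraries, where Acss2 had 5615. Set against 3 reads over the 4 libraries, Acss2 was at least 371-fold lower per unique read without ethanol. So the untreated libraries give no check of the knockdown. In the ethanol libraries Acss2 stood at 52.3, 58.3 and 53.4 CPM in dorsal controls and at 44.7, 41.3, 17.7 and 19.0 in the dorsal knockdown. The dorsal groups did not overlap, but how many of all genes separate in that region alone was not counted. The difference was -0.80 on the log2 scale (SE 0.35, adjusted p 0.912 by edgeR's quasi-likelihood test). In ventral hippocampus the knockdown libraries had 28.8, 64.4 and 36.7 CPM and the controls 47.5 to 53.4, so the groups overlapped.

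**Figure D2:**
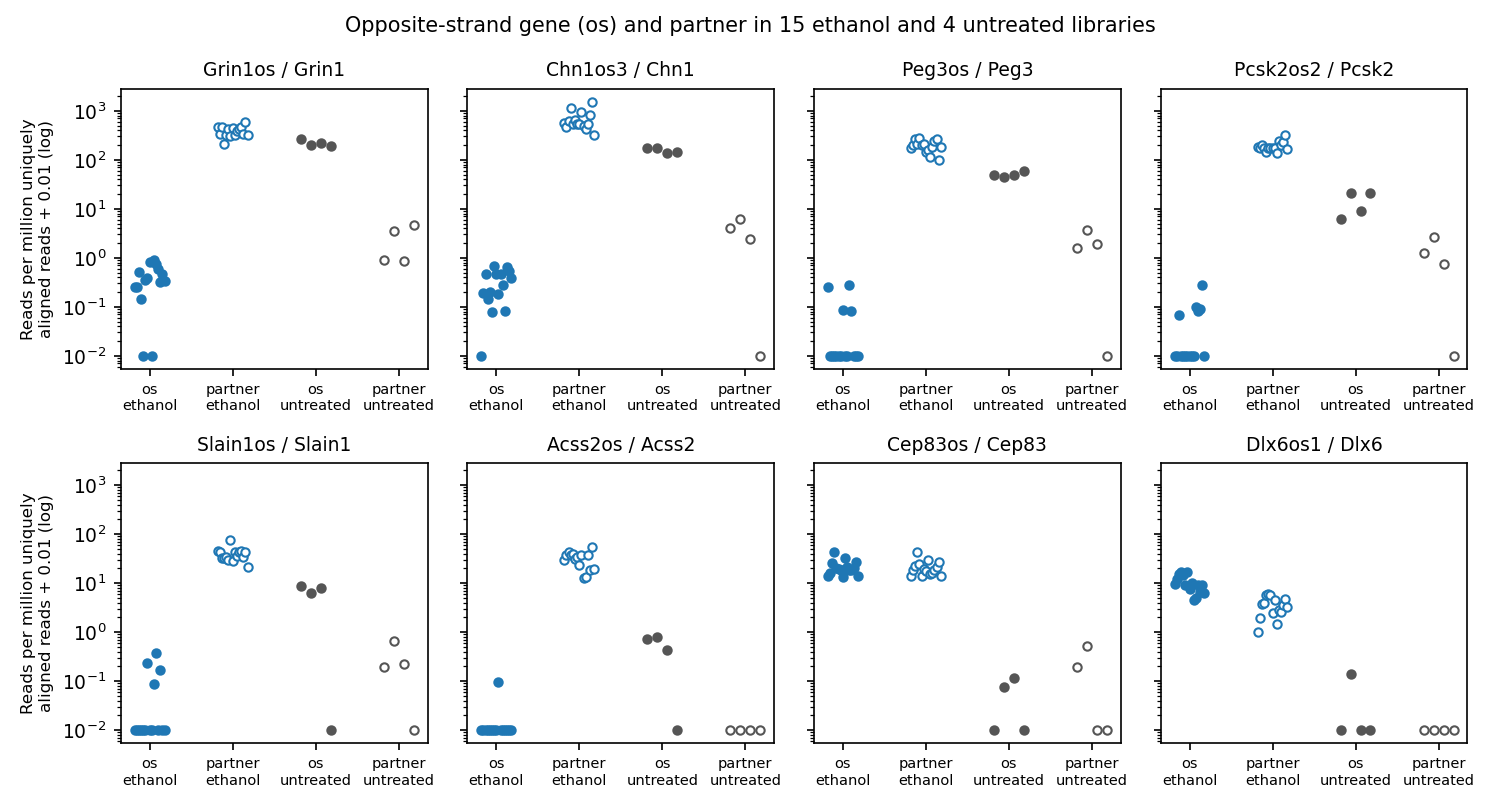
Reads per 1000000 uniquely aligned reads plus 0.01 (log axis) for 8 pairs in the 15 ethanol (blue) and 4 untreated libraries (grey), with filled points for the opposite-strand gene (os) and open points for the partner. In the first 6 panels the summed reads of the pair change order between the library sets. For Cep83os, whose exons do not overlap those of Cep83, and for Dlx6os1, both rows are low in the untreated. The exon overlap of Dlx6os1 and of Peg3os is not known, as neither pair could be placed.

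Which opposite-strand genes had untreated reads went with exon overlap and with the level of the partner. Among pairs with overlapping exons and a partner at 10 CPM or more, 42 of 55 opposite-strand genes had 10 or more untreated reads, with a median of 67. Among pairs without exon overlap and a partner at that level, 4 of 42 did, and the median was 0. Over pairs with at least 10 untreated reads, the median opposite-strand share was 87.2% in 56 pairs with overlapping exons and 8.11% in 27 without. The opposite-strand gene had more reads than its partner in 43 of those 56 and in 3 of those 27. The limit of 10 applied to both genes together. A pair could pass it through the opposite-strand gene alone, as Acss2os did with 24 reads against 0 for Acss2. These shares and counts therefore describe only the pairs that passed. Where exons overlapped but the partner was under 1 CPM, 0 of 15 reached 10 reads. Over the 148 placed pairs, Spearman's rho of untreated opposite-strand reads was 0.32 with the gene's own ethanol level and 0.56 with the partner's. It was 0.71 with the partner's level per base times the overlapping bases. Within the 80 overlapping pairs, the first and last of these were 0.24 and 0.76. These correlations are across pairs that share the same libraries, and pairs are not replicates.

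**Figure D3:**
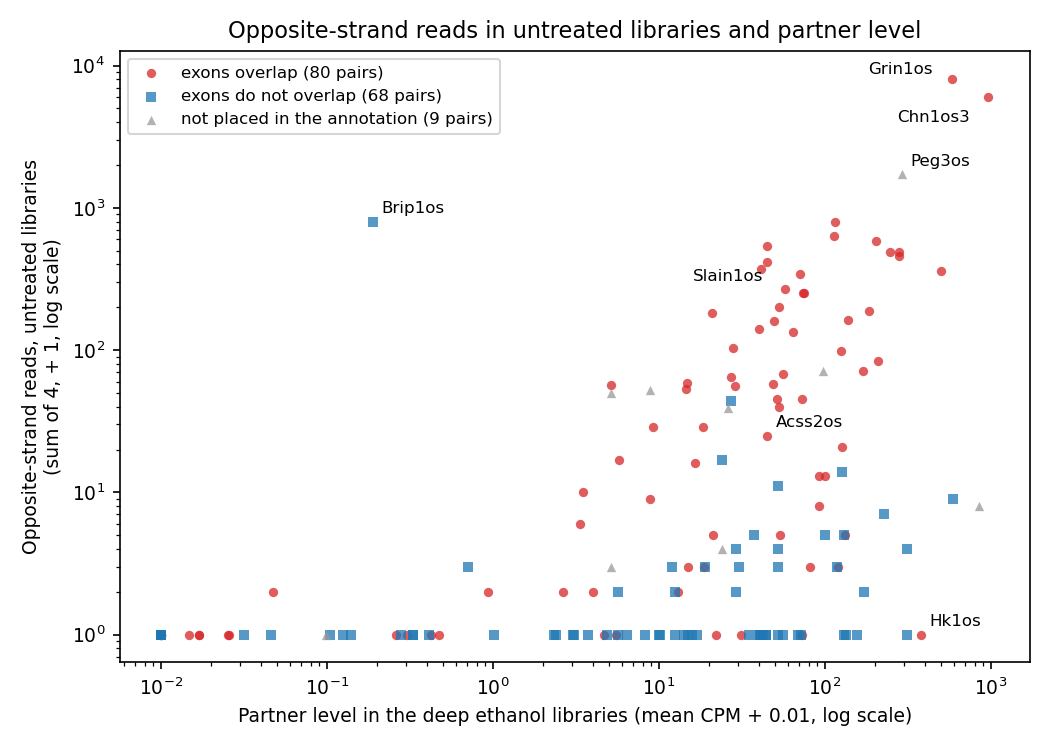
Opposite-strand reads summed over the 4 untreated libraries plus 1 (vertical, log axis) against the partner's mean CPM in the 15 ethanol libraries plus 0.01 (horizontal, log axis), for 80 pairs with and 68 without exon overlap and 9 not placed. Among partners at 10 CPM or more, 42 of 55 pairs with overlap but 4 of 42 without it had 10 or more reads; Brip1os and Hk1os are exceptions.

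Some pairs fell outside this order, and those named here were chosen after their values were seen. Hk1os, with 157 overlapping bases, had 0 untreated reads although Hk1, hexokinase 1, had 46984 reads after ethanol. Dgkeos also had 0, Tspan2os had 2 and St8sia3os 4. Without exon overlap, Slc7a6os had 16, Dnm3os 13 and Nrg3os 10 reads. The exons of Brip1os overlap Med13, a Mediator kinase-module subunit gene on the other strand, which had 10774 reads in the 15 ethanol libraries and 23 in the untreated. Which locus the Brip1os reads came from was not tested.

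The order of the 2 rows of a pair was also compared with other annotated pairs on opposite strands. Of the member pairs with overlapping exons and at least 10 reads in both library sets, the lesser row in ethanol was the greater in the untreated in 45 of 56 (80.4%). Among 1315 other annotated pairs with overlapping exons this was so in 692 (52.6%). Without exon overlap it was so in 1 of 24 member pairs (4.17%) and in 227 of 879 others (25.8%). More of the member pairs were 10-fold apart in ethanol. Among pairs at least that far apart with overlap, it was so in 79.2% of 48 member pairs and 61.5% of 620 others. Without overlap it was so in 0 of 22 and in 19.7% of 473. A pair could reach 10 untreated reads through a single row, so these counts describe only the pairs that passed. Among those, changes of order also occurred at annotated pairs without os names. How often sparse untreated counts alone would change the order was not tested. Whether all libraries were counted with the same strand setting was not tested.

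The 2 library sets can also be compared gene by gene. Of the 157 opposite-strand genes, 47 had more reads in the 4 untreated than in the 15 ethanol libraries, although the latter held 124473211 gene reads and the former 434904. Over all 24498 genes, 799 did (3.26%). In the fit across genes, 6494 of 15414 tested genes differed between dorsal ethanol and untreated libraries at an adjusted p of 0.05 by edgeR's quasi-likelihood test (42.1%; 29.3% higher and 12.9% lower in ethanol). Of the 80 opposite-strand genes tested, 57 were lower and 3 higher. Of the 122 partners tested, 38 were higher and 10 lower. Many opposite-strand genes passed the filter on low counts only through the untreated libraries, so these counts describe the genes tested and not the 157. The median difference was 2.01 over all tested genes, -7.45 over opposite-strand genes and 1.37 over partners, on the log2 scale of ethanol minus untreated. Without the filter, 66 of 128 opposite-strand genes were lower and 3 higher, and the medians were 1.67, -4.27 and 1.26. Over all 20128 genes of that fit, 2216 were lower and 3841 higher (30.1% called).

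The 8 members with the smallest p were Kcnmb4os1 (-13.33), Tmem150cos (-12.87), Phtf1os (-8.95), Uchl1os (-11.22), Pcsk2os2 (-14.23), Ino80dos (-7.32), Bcas1os2 (-12.48) and Tomm6os (-7.43). The fitted differences of Peg3os, Chn1os3 and Grin1os were -15.54, -14.90 and -14.80. These values restate the read counts above and are no separate evidence. The 3 opposite-strand genes called higher in ethanol were Chd3os (2.79, SE 0.68), Cep83os (2.19, SE 0.71) and Wdr83os, which had 0 reads in the untreated controls and 2 in the untreated knockdown. Per unique read Chd3os, with 7 untreated reads, was 371 times lower in the untreated, against 56.7 times for all genes. With DESeq2 and with RLE scaling 0 opposite-strand genes were called higher, and 61 and 57 lower. In the knockdown arm alone 1 was called higher. The partners depended on the scaling: 38 higher and 10 lower became 10 and 19 with RLE scaling and 4 and 19 with DESeq2. The median of all genes moved to 1.28 and -0.20, and the calls over all genes became 1510 higher and 2431 lower with RLE and 740 and 2581 with DESeq2. Leaving out the untreated knockdown replicate 1 left 2701 calls over all genes and 50 of the members', 47 of them shared, in place of 108.

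Partners with many untreated reads were few. The leading 5 were Zfhx2 with 319, Ccpg1 with 295, Chd3 with 282, Zeb2 with 174 and Chn1 with 165. Zfhx2 and Zeb2 encode zinc finger homeobox proteins. Zfhx2os, with the longest exon overlap of 3255 bases, had 206, 198, 225 and 4 untreated reads, and its partner 93, 133, 89 and 4. Its share was 66.5% untreated and 7.91% after ethanol. Zeb2os had 490 reads and a share of 73.8%, against 1.49% after ethanol. Ccpg1os, a protein-coding gene that runs away from Ccpg1, had 2 reads.

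Several other non-coding RNAs of brain, kept as a list of 34 beside the pairs and chosen with earlier results known, did not share one direction. Of 33 tested, 9 were called higher and 4 lower in ethanol, with a median of 1.72. The lower ones were Dlx1as at -5.14, Xist at -9.67, Ftx at -2.05 and Dleu2 at -2.63. These values stand beside the median of 2.01 over all genes. None of the 33 was called in the other 4 comparisons by edgeR.

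The 10 opposite-strand genes with the highest ethanol levels shared 1 member, Brip1os, with the 8 that had most untreated reads. Chd3os, opposite the NuRD remodeller gene Chd3, had 61.9 to 177 CPM (median 102) and 13095 reads, 10.8% of its pair. Without ethanol it had 7 reads and Chd3 282. Cep83os and Cep83 were close to equal: 50.9% (49.7 to 52.0) of 7495 pair reads, between 42.9 and 57.9% in single libraries. Their levels per length were 4.66 and 4.15 RPKM (CPM divided by exon length in kilobases). Wdr83os, a small membrane protein gene, made 61.0% of its pair's reads and 29.8 RPKM against 6.61 for Wdr83. Slc7a6os made 44.3%, and Brip1os 98.4%. Dlx6os1 made 73.7%, with 6.45 to 23.5 CPM against 1.76 to 9.19 for the homeobox gene Dlx6. The next, Fam120aos, Cebpzos, Rab10os and Sp3os, made 9.60, 27.3, 7.04 and 17.3%. Their untreated reads ranged widely. Chd3os had 7, Cep83os, Wdr83os and Dlx6os1 2 each, and Fam120aos 1. Slc7a6os had 16, Sp3os 57, Rab10os 70, Cebpzos 140 and Brip1os 799.

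Some of these transcripts were high in the same 2 libraries. The opposite-strand share was highest in control ventral replicate 1 at 5.59% and knockdown dorsal replicate 2 at 5.55%, and at most 3.89% in the other 13. Control ventral replicate 1 had Chd3os at 177, Fam120aos at 50.0, Cebpzos at 34.1 and Sp3os at 24.3 CPM. Knockdown dorsal replicate 2 had them at 175, 27.7, 34.3 and 17.8. Other members of the 10 were not high there: Rab10os had 12.3 and 12.5 CPM (median 12.3), Brip1os 11.8 and 12.2 (median 11.6), and Dlx6os1 21.9 and 11.2. The partner Chd3 was at 442 and 518 CPM in these libraries, below the median of 862, and was also low, at 455, in knockdown ventral replicate 3. Reads in genes were 68.1 and 76.2% of unique reads there, inside the range of the others. These 2 libraries belong to different groups, so each group's spread holds one of them.

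The knockdown comparison after ethanol called no member in dorsal hippocampus. Of 202 members tested, 0 passed an adjusted p of 0.05 by edgeR, as did 0 of all 15414 genes (0%), and 10 members had an unadjusted p under 0.05, as did 4.90% of all genes. The 3 smallest p were those of Ptgs2, Gldn and Igf2os. Ptgs2, the inducible prostaglandin synthase of active neurons, had 163, 28.8, 47.9 and 155 CPM in the knockdown and 22.0, 6.53 and 11.9 in controls. The groups did not overlap, but the share of all genes without overlap in dorsal libraries alone was not counted. The difference was 2.89 (SE 0.64, adjusted p 0.487 by edgeR). Ptgs2os, which starts 68 bases from Ptgs2 and runs away from it, had 1.58, 0.196, 1.50 and 3.43 CPM against 0.439, 0.473 and 0.354. It was higher in 3 of 4 knockdown libraries (1.93, SE 0.78, adjusted p 0.820 by edgeR). With DESeq2, Ptgs2 was called (adjusted p 0.0201), along with Slain1os and Srrm4os, whose fits rested on reads in few libraries. Over all 15414 genes DESeq2 called 5 (0.0324%). Gldn, gliomedin, was 2.63 higher (adjusted p 0.553 by edgeR). Igf2os was -4.25 (adjusted p 0.674 by edgeR): it had 0 reads in all 4 deep dorsal knockdown libraries and 0.283 to 0.473 CPM in controls. Microglial markers moved with this comparison: 12 of 12 were higher in the knockdown, with 541 to 1464 CPM summed against 358 to 495, and their part in the result was not tested.

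In ventral hippocampus 0 of 202 members were called by edgeR, and 1 of 15414 genes was (0.00649%). The 9 members with an unadjusted p under 0.05 stand beside 4.29% of all genes, and DESeq2 called 0 members. The smallest p belonged to Six3, a homeobox regulator of forebrain and eye, and to Six3os1, whose exons overlap those of Six3 by 106 bases. Six3 had 0.357, 5.29, 12.8 and 15.1 CPM in ventral controls and 0, 0.210 and 0.104 in the ventral knockdown. Six3os1 had 0, 3.78, 7.14 and 14.2 against 0.123, 0.105 and 0.104. Control replicates 2 to 4 were thus high for both genes and replicate 1 was low. The differences were -6.05 for Six3 (SE 1.04, adjusted p 0.0632) and -5.63 for Six3os1 (adjusted p 0.108). Without control ventral replicate 1 both were called, with adjusted p of 1.39e-04 and 2.15e-04 by edgeR, and so was Otx2 (adjusted p 0.0394). That fit called 64 of 15389 genes (0.416%), so leaving out this library raised the calls over all genes as well. Six3 was also called by edgeR with RLE scaling (adjusted p 0.0454) and without the filter on low counts (adjusted p 0.0477). Those fits called 2 of 15414 genes (0.013%) and 4 of 20128 (0.0199%).

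Markers of neighbouring tissue were unequal among these libraries. Hypothalamic markers, 12 in the list with Six3 among them, summed to 14.1, 21.9, 19.8 and 20.0 CPM in ventral controls. In the ventral knockdown the sums were 45.5, 2.94 and 3.95. Six3 alone made up 0.357, 5.29, 12.8 and 15.1 CPM of those control sums, so they are not separate from it. The highest sum was in knockdown ventral replicate 2, where Six3 had 0 reads. Of the 7 tested, 4 were higher and 3, with Six3 among them, lower in the knockdown. The 12 choroid plexus markers summed to 19942 CPM in control ventral replicate 4 and to 161, 240 and 854 in the other ventral controls, against 159 to 229 in the knockdown. Otx2, a homeobox gene of choroid plexus, had 48.5 CPM in that library and 0.535 to 6.38 in the others of its group. Their part in the Six3 values was not tested. In bulk tissue, fewer cells of a type and less RNA per cell cannot be told apart.

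Dlx6os1 was lower in the knockdown in both regions. Dorsal libraries had 14.8, 11.2, 6.45 and 7.40 CPM in the knockdown and 16.7, 18.4 and 19.1 in controls. Ventral libraries had 10.5, 10.7 and 12.1 against 21.9, 19.7, 14.1 and 23.5. The groups did not overlap in either region. Of 15414 tested genes, 5 were lower without overlap in both regions (0.0324%) and 8 higher (0.0519%), and Dlx6os1 was the 1 member among them. The differences were -0.89 (SE 0.31, adjusted p 0.692) and -0.87 (SE 0.31, adjusted p 0.652) by edgeR, and neither was called. Its partner Dlx6 overlapped between groups, with 2.04 to 5.00 CPM in the dorsal knockdown and 1.76 to 4.61 in controls. Dlx1as, an antisense RNA of the related Dlx1 and not a member, had 17.0, 12.8, 3.87 and 8.58 CPM in the dorsal knockdown against 20.1 to 22.7. In ventral libraries Dlx1as had 12.5, 18.5 and 13.9 against 17.4 to 26.5, and there the groups overlapped. The interneuron homeobox genes Dlx1 and Dlx2 were lower without overlap in the ventral knockdown: Dlx1 had 24.0, 16.5 and 18.3 CPM against 33.4 to 41.1, and Dlx2 5.41, 3.78 and 4.57 against 7.46 to 9.07. In dorsal libraries both overlapped between groups, and the share of all genes without overlap in ventral libraries alone was not counted. Dlx5 and Dlx6 overlapped in ventral libraries. Dlx5 had 6.88, 3.47 and 2.29 CPM against 5.10 to 8.39, and Dlx6 5.46 to 6.34 against 5.17 to 9.19. Of the 14 GABAergic interneuron markers, which include these genes, 6 were higher and 8 lower in the ventral knockdown. Their median log2 difference was -0.04, and 0 were called by edgeR. GABAergic interneuron markers summed to 1342 to 1619 CPM in the dorsal knockdown and 1250 to 1555 in dorsal controls, and to 1199 to 2653 and 1051 to 1961 in ventral libraries, with overlap in both regions.

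**Figure D4:**
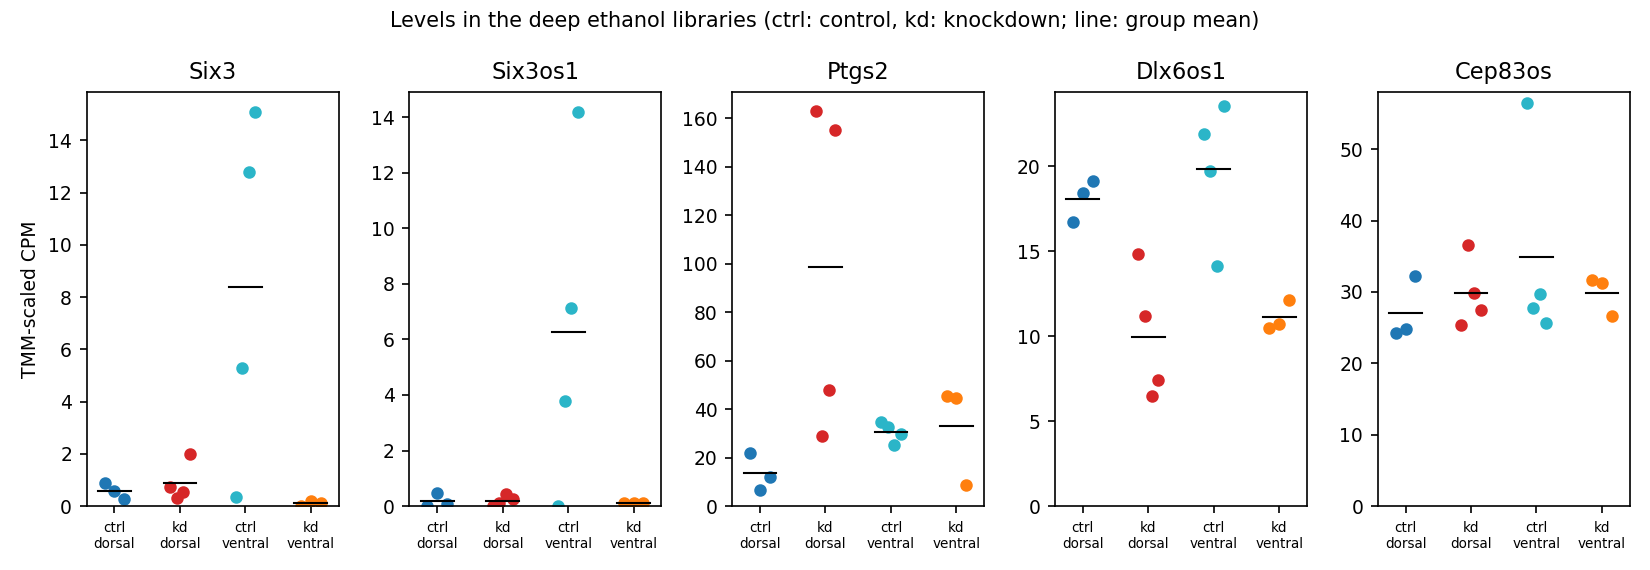
TMM-scaled CPM (vertical axis, linear from 0) of 5 members in the deep ethanol libraries of each group; points are libraries and lines are group means. Six3 and Six3os1 are high in 3 of 4 ventral controls, Ptgs2 lies between 28.8 and 163 in the dorsal knockdown, Dlx6os1 is lower in both knockdown groups, and Cep83os is high in 1 ventral control.

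With all libraries kept, edgeR set no member apart by region. Between dorsal and ventral controls 0 of 202 members were called by edgeR, as were 0 of all genes (0%), and 11 members had an unadjusted p under 0.05 (5.45% of all genes). Six3 (-4.07) and Six3os1 (-4.72) had the smallest p, both with an adjusted p of 0.411, and Dlx6 followed at -1.19. DESeq2 called Slain1os and Srrm4os here, among 4 of all genes (0.026%). Without control ventral replicate 1, Six3 and Six3os1 were called (adjusted p 0.00212 and 0.00157 by edgeR), among 16 of 15389 genes (0.104%). Within the knockdown 0 were called (0% of all genes), 7 had an unadjusted p under 0.05 (2.79% of all genes), and DESeq2 called 0. Igf2os, Ptgs2 and Six3 led with -5.02, 1.58 and 2.77, each at an adjusted p of 1.00. The ventral knockdown libraries enter this comparison and the ventral one, so the Six3 values are not independent between them.

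Pairs were also compared across the 14 dorsal and ventral ethanol libraries, after removing group means, by an exact permutation test within groups. Of 2501 opposite-strand pairs in the annotation, 26 had an adjusted p under 0.05 (1.04%) and 505 an unadjusted p under 0.05 (20.2%). Of the 61 member pairs tested, 0 were called and 8 had an unadjusted p under 0.05. The median r was 0.14 over members and 0.18 over all pairs, and 35 of 61 were positive, as were 1593 of 2501. Zfhx2os and Zfhx2 had the smallest p (r 0.79, rho 0.78, permutation p 0.00357, adjusted p 0.0884), and r was 0.81 without the 2 libraries farthest out. Zfhx2os ranged from 2.85 to 15.3 CPM and Zfhx2 from 42.3 to 174, both lowest in control ventral replicate 1. Man2c1os followed (r 0.44, rho 0.68, permutation p 0.0111, adjusted p 0.125), with r 0.56 without 2 libraries. Slain1os, opposite the microtubule plus-end protein gene Slain1 (r 0.62, permutation p 0.0208, adjusted p 0.167) fell to 0.29 without 2, so it rested on those libraries. Emx2os, which overlaps the start of the cortical homeobox gene Emx2, had r 0.72 (permutation p 0.0223, adjusted p 0.168), and 0.65 without 2. Igf2os and Igf2 had r 0.86 (permutation p 0.0243, adjusted p 0.173). Igf2 was highest, at 450 and 263 CPM, in control ventral replicate 4 and knockdown ventral replicate 4, where Igf2os was 1.84 and 1.56. Choroid plexus markers were at 19942 CPM in the former and meningeal markers at 620 in the latter, against at most 363 elsewhere, and their part was not tested.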

How the data were processed

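The values were raw HTSeq counts of reads per gene, deposited by the authors for 21 libraries, with 24498 genes and 5 summary lines that were left out of library sizes. STAR 2.5.2a and HTSeq 0.6.1p1 on mm10 are named per the submitters' processing notes; no strand setting is named there. The deposited counts came from a directional kit, per the labels' protocols. Fits used edgeR 4.0.16 in R 4.3.3 (TMM scaling, filterByExpr with a minimum count of 10, quasi-likelihood test, 6 group means over 20 libraries, Benjamini-Hochberg threshold 0.05). The total hippocampus library entered no test. CPM values cover the 15 ethanol libraries over 1000000 gene reads. Intervals are 95% Clopper-Pearson and cover counting error only. A floor of 3 reads stood for 0. Covariation used log2 CPM with a prior count of 1 and 20736 exact permutations within groups (smallest p 4.82e-05). Positions and overlaps came from GENCODE M21, and promoter windows from RefSeq GRCm38.p6.

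Alternatives were DESeq2 1.42.0, RLE scaling, no filter, the replicate number as a block, single arms, and leaving out each library. Members and lists were chosen with earlier results of these data known. Pairs are named where the opposite-strand gene was among the 10 highest after ethanol or the 8 with most untreated reads, the partner among the 5 with most untreated reads, either was called (at most the 8 smallest p), or the pair was one of 8 preset; with no call, the 3 smallest p are named. Of the preset pairs, Oip5os1 and Nr6a1os were not used here. Some sequences and 1 pair are not reported here.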

Additional observations from a re-analysis of the deposited data

Results flagged for a closer look

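Within the dorsal knockdown and ventral control groups of 4 deep ethanol libraries, 112 sets of CPM values were looked at, and in 11 the highest library stood apart by Dixon's ratio (critical value 0.829). Chance gives about 1 in 20.

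Control ventral replicate 1 stood above the rest of its group in 4 genes. Cep83os was 56.4 CPM against 25.7 to 29.7, Fam120aos 50.0 against 14.9 to 16.9, Sp3os 24.3 against 6.94 to 8.32, and the partner Rab10 283 against 158 to 175. This library also had the highest opposite-strand share after ethanol among those over 1000000 gene reads, 5.59%.

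Control ventral replicate 4 stood apart in 4 genes as well. Otx2 was 48.5 CPM against 0.535 to 6.38, and Otx2os1 2.39 against 0 to 0.108. Bcas1 was 423 against 134 to 165, and Slain1 105 against 42.8 to 47.2. Its choroid plexus markers summed to 19942 CPM.

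Zeb2os was 5.80 CPM in control ventral replicate 2 against 2.68 to 3.14. Uchl1 was 837 CPM in knockdown dorsal replicate 2 against 494 to 533. Otx2os1 was 0.107 CPM in knockdown dorsal replicate 3 and 0 in the rest of that group. With the rest at 0 the ratio is 1.00 for any value, so this flag carries no weight.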

How the results depend on the processing

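For the genes named by smallest p, with Dlx6os1, Acss2 and Ptgs2os, 382 values kept direction and side of the threshold, 10 passed the threshold where they had not, and 0 turned. That tally leaves out Chd3os, Cep83os and Wdr83os: of their 3 calls, 0 were made with RLE scaling or DESeq2. Counts of called members moved as follows. In dorsal knockdown DESeq2 called 3, among 5 of all genes. In ventral knockdown RLE scaling and no filter called 1 each, among 2 and 4 of all genes. There, leaving out a library gave 0 to 3 members and up to 64 of all genes. Between regions in controls DESeq2 called 2, among 4 of all genes. Leaving out a library gave 0 to 2 members there and up to 16 of all genes. In both comparisons the highest count from leaving out a library came without control ventral replicate 1. For ethanol against untreated, leaving out a library gave 50 to 110 members and 2701 to 6513 of all genes, lowest without the untreated knockdown replicate 1. RLE scaling called 3941 of all genes, DESeq2 3321, and the control and knockdown arms alone 3808 and 3786. The median untreated share of 89.7% was 86.0% without Grin1os, 93.4% with overlapping exons only and 46.4% without overlap. The median over pairs with at least 10 untreated reads was 65.4%. It was 79.7% with at least 20 reads, 87.2% with overlapping exons only and 8.11% without overlap. In the covariation test, group means left in gave 5 members and 249 of all pairs, and leaving out a library gave 0 to 29 of all pairs and 0 members. The cause of these shifts was not tested. Untreated depth limits single genes: 3 reads over the 4 libraries are 6.90 reads per 1000000 gene reads.

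The replicate block called 2 members in ventral knockdown (Six3, adjusted p 0.0149, and Six3os1, 0.00800, by edgeR) and 106 for ethanol against untreated. Over all 15414 genes it called 8 (0.0519%) and 6236 (40.5%). Correlations of same-numbered libraries ran from -0.20 to 0.33, and 4 of 14 libraries correlated best with their own number, so the samples share only a number.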
